A study of Mus musculus with 4 samples.

Results

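The NF-kB genes measured here are the 5 subunit genes Rel, Rela, Relb, Nfkb1 and Nfkb2, the inhibitor genes Nfkbia, Nfkbib, Nfkbie and Nfkbiz, and Tnfaip3, which encodes a ubiquitin-editing enzyme that dampens the pathway. They were taken by gene symbol from the deposited expression table, where all 10 have a row among 23997 genes. Follicular helper T (Tfh) cells of C57BL/6 mice aged 13 weeks, from lymph nodes and spleens, were profiled by RNA sequencing in 2 libraries labelled wild type (WT) and 2 labelled Apoe-/-, from mice without a working gene for apolipoprotein E. The labels give no other allele, treatment or diet, nor how the cells were sorted, nor whether the libraries of a genotype came from separate or pooled animals. What the p-values weigh is thus the spread of these libraries, and that spread may be technical. Values are FPKM, fragments scaled to transcript length and to library size as computed by the authors. They were tested as log2(FPKM + 1), on which a difference of 1 is about a doubling at these levels.

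NF-kB is a family of transcription factors that work as dimers of Rel-homology proteins. In resting cells, inhibitors of kappa B hold most dimers in the cytoplasm; signals from the T cell receptor, costimulatory receptors and tumour necrosis factor receptors activate the IKK complex, which marks the inhibitors for destruction and lets the dimers enter the nucleus. Nfkb1 and Nfkb2 encode precursors that carry their own inhibitory part until it is removed. Nfkbia, Nfkbie and Tnfaip3 are themselves classical NF-kB target genes, so the pathway switches on its own brakes. In T cells c-Rel, the product of Rel, is known for its part in activation and in cytokine gene expression.

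Apoe itself was at 145 and 128 FPKM in the WT libraries and at 5.09 and 5.21 FPKM in the Apoe-/- libraries, as the labels say. Of the T cell and Tfh markers examined, Cd3e, Cd4, Cxcr5, Bcl6, Pdcd1, Icos and Il21 were all present in every library. The summed FPKM of the 10 markers was 2617 and 2572 in WT and 2649 and 2586 in Apoe-/- libraries, with 0 of 10 called. That sum holds opposite moves. Both Apoe-/- libraries lay below both WT libraries for 2 of the 10, Sh2d1a and Pdcd1 (283 and 260 FPKM in WT, 203 and 179 in Apoe-/-). They lay above for 3, Cd4, Bcl6 and Cxcr5 (176 and 162 FPKM in WT, 223 and 204 in Apoe-/-). Transcripts of other cells were present too. B cell markers summed to 334 and 329 FPKM in WT and to 204 and 195 in Apoe-/- libraries; all 10 were lower in both Apoe-/- libraries, 4 of them passed the test, and none was at 0. In the other direction, neutrophil markers summed to 6.95 to 8.85 FPKM in WT and 49.4 to 65.9 in Apoe-/- libraries. The 4 tested of 9 all rose, and Elane and Camp were at 0 throughout. Genes were tested at a mean FPKM of at least 1 over all libraries. Retnlg (0.124 and 0.297 FPKM in WT, 3.67 and 4.80 in Apoe-/-) met this only through its Apoe-/- values. For such a gene, being tested and being higher are not independent. Dendritic cell markers summed to 51.1 to 55.1 and 69.1 to 70.4 FPKM (1 of 7 tested called higher). Among the tested, Zbtb46 (0.828 and 1.07 FPKM in WT, 1.31 and 1.36 in Apoe-/-), which was not called, also passed the filter only through its Apoe-/- values. Macrophage and monocyte markers summed to 246 to 277 and 309 to 345 FPKM (1 of 12 called higher). The called gene, Vsig4 (0.148 and 0 FPKM in WT, 2.25 and 4.72 in Apoe-/-), passed the filter in the same way. CD8 T and NK cell markers summed to 42.3 to 45.8 and 83.2 to 86.2 FPKM (1 of 8 tested called higher). Plasma cell markers summed to 90.3 to 98.7 and 87.5 to 91.2 FPKM (1 of 5 tested called higher). The called gene was Jchain (means of 10.2 FPKM in WT and 27.2 in Apoe-/-), the 1 tested marker above without overlap. Below without overlap were 2 tested markers, Xbp1 (56.7 and 40.4) and Mzb1 (18.3 and 13.0). Of all tested genes, 0.948% were called higher and 0.885% lower. Both Apoe-/- libraries lay above both WT libraries for 7 of 7 tested dendritic cell, 6 of 12 macrophage and monocyte and 6 of 8 CD8 T and NK cell markers. They lay below for 0, 1 and 0 of these. Among all tested genes 27.5% lay above and 22.9% below. B cells and myeloid cells also express NF-kB genes, so these sums stand beside every result that follows, and their part in it was not tested.

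Of the 10 NF-kB genes, Rel was the only one to pass the test (limma, Benjamini-Hochberg adjusted over all 11187 tested genes, threshold 0.05). It fell 2.59-fold in Apoe-/- cells, while Rela stayed within the spread of the libraries. Another 6, namely Nfkb1, Nfkb2, Nfkbia, Nfkbie, Nfkbiz and Tnfaip3, were 17.6% to 31.2% lower by mean FPKM with no overlap between the genotypes but did not pass. The remaining genes, Rela, Relb and Nfkbib, had overlapping groups. Thus 1 of 10 was called lower, where 0.885% of all tested genes were, and 0 of 10 were called higher, where 0.948% were (1.83% in either direction). Without adjustment, 7 of the 10 were lower and 0 higher at p under 0.05, against 8.27% and 11.6% of all genes. Both Apoe-/- libraries lay below both WT libraries for 7 of the 10, against 22.9% of tested genes, and above them for 0, against 27.5% (50.4% in either direction). The median difference was -0.32 over the 10 genes and 0.00029 over all tested genes.

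The promoters of Rel, which passed the test, of Nfkb2, Nfkbia and Tnfaip3, which did not pass, and of Rela, whose groups overlapped, are shown first, since NF-kB genes are known to be targets of their own family. Each is 300 bases long, from 250 before to 50 after an annotated start, on the strand of the gene (RefSeq, GRCm38.p6). Capitals mark matches to the kappa B consensus, the 10-base motif bound by NF-kB dimers, searched on both strands.
Rel, chr11:23770920-23771219, minus strand: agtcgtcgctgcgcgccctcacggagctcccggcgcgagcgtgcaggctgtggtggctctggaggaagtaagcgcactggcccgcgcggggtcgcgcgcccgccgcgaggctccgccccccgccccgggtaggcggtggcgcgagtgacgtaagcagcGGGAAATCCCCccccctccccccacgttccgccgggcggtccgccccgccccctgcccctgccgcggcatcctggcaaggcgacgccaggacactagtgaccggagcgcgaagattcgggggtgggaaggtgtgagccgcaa
Nfkb2, chr19:46304487-46304786, plus strand: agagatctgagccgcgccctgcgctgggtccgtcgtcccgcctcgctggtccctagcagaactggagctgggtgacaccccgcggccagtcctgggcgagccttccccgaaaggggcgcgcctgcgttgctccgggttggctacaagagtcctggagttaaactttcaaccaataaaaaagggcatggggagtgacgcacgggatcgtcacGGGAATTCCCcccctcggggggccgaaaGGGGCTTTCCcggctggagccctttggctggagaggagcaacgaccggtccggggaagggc
Nfkbia, chr12:55492598-55492897, minus strand: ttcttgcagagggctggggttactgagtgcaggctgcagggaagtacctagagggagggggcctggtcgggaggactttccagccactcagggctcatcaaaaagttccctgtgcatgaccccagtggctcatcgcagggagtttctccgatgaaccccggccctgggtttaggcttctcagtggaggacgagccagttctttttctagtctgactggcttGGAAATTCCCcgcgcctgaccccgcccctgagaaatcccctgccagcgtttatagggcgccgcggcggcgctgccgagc
Tnfaip3, chr10:19015361-19015660, minus strand: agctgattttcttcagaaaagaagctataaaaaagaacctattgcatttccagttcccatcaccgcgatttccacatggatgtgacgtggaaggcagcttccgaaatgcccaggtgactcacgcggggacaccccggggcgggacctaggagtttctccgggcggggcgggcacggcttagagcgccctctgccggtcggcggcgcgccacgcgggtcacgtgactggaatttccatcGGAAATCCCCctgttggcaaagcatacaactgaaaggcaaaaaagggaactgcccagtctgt
Rela, chr19:5637291-5637590, plus strand: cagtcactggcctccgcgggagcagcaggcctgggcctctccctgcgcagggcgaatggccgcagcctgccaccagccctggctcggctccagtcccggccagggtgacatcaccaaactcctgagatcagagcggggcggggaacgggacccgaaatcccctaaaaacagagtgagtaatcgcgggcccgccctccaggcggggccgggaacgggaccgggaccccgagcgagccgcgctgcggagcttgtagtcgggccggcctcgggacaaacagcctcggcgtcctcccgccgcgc

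In the Rel promoter the capitals hold 2 matches that overlap by all but 1 base, the first starting 92 bases before the start of the gene. Nfkb2 carries a symmetric match, read on either strand, 39 bases before the start shown and another 11 bases before it. A further match lies near the other annotated Nfkb2 starts, 10 bases after one and 225 bases before the next, and is the same site. The matches of Nfkbia and Tnfaip3 begin 29 and 12 bases before their starts. Rela, which did not differ beyond the spread of its libraries, has none in this window. Nfkbib, whose groups overlapped, and Nfkbie, which was lower without overlap, have none either. Outside the NF-kB genes shown, the inhibitor family genes Nfkbid and Bcl3, described below, each carry a match in a window. Nfkbid was called lower, whereas Bcl3 had a higher mean in Apoe-/- cells with overlapping groups. In all, 7 of the 10 genes were in the promoter table and 4 of these had a match in at least 1 window, against 8.33% of the 8476 tested genes with a window and 5.81% of all 32851 windows. Genes with several starts have more windows in which to match, as Nfkb2 and Tnfaip3 do. The AP-1 motif TGANTCA, searched likewise, was found for 3 of the 7 genes (Nfkb2, Nfkbie and Tnfaip3) and for 5.83% of tested genes. A match describes the letters of the window and shows no binding.

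Rel, the c-Rel gene on chromosome 11 (23736847 to 23770969, GRCm38), was at 86.8 and 98.1 FPKM in WT and at 30.6 and 40.8 FPKM in Apoe-/- cells. Both Apoe-/- libraries were far below both WT libraries, and the gap between the genotypes was wider than that between replicates. The means were 92.5 ± 7.97 and 35.7 ± 7.22 FPKM (SD, n = 2 each), and the log2 difference was -1.36 ± 0.16 SE (95% interval -1.76 to -0.96, limma adjusted p = 0.0294). The difference was -1.47 between the libraries numbered 1 and -1.24 between those numbered 2. Among all tested genes it ranked 45th from the bottom. With no filter on low FPKM, which takes the genes tested from 11187 to 16584, the difference was the same and the adjusted p was 0.0726; over every setting tried it ran from 3.25e-05 to 0.0726. The B cell marker sums given above were lower in the same libraries as Rel. In RNA from a cell mixture, fewer cells of a type and less RNA per cell cannot be told apart.

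Rela encodes p65, the transactivating partner in the most common NF-kB dimer. It was at 71.0 and 59.3 FPKM in WT and 70.7 and 60.4 FPKM in Apoe-/- cells. The groups covered the same range, and in each genotype the library numbered 1 was the higher. The log2 difference was 0.01 ± 0.14 SE with an interval of -0.33 to 0.35 (limma adjusted p = 0.976), which leaves room for changes of that size in either direction; its sign turned to -0.036 with libraries rescaled to one FPKM total.

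Relb, the subunit of the noncanonical pathway that pairs with the Nfkb2 product, was at 50.3 and 42.0 FPKM in WT and 44.3 and 39.1 FPKM in Apoe-/- cells. These groups overlapped, and the log2 difference was -0.14 ± 0.13 SE (interval -0.47 to 0.19, limma adjusted p = 0.60). Nfkb2, whose precursor is the inhibitor of RelB dimers until it is processed, was at 66.8 and 58.4 FPKM in WT and 44.9 and 41.2 FPKM in Apoe-/- cells. Here both Apoe-/- libraries lay below both WT libraries, and the log2 difference was -0.53 ± 0.11 SE (limma adjusted p = 0.0965). Nfkb1, the gene of the partner of p65 and c-Rel, was at 114 and 109 FPKM in WT and 89.5 and 94.4 FPKM in Apoe-/- cells, again without overlap but by a smaller step (-0.28 ± 0.09 SE, limma adjusted p = 0.187).

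**Figure D1:**
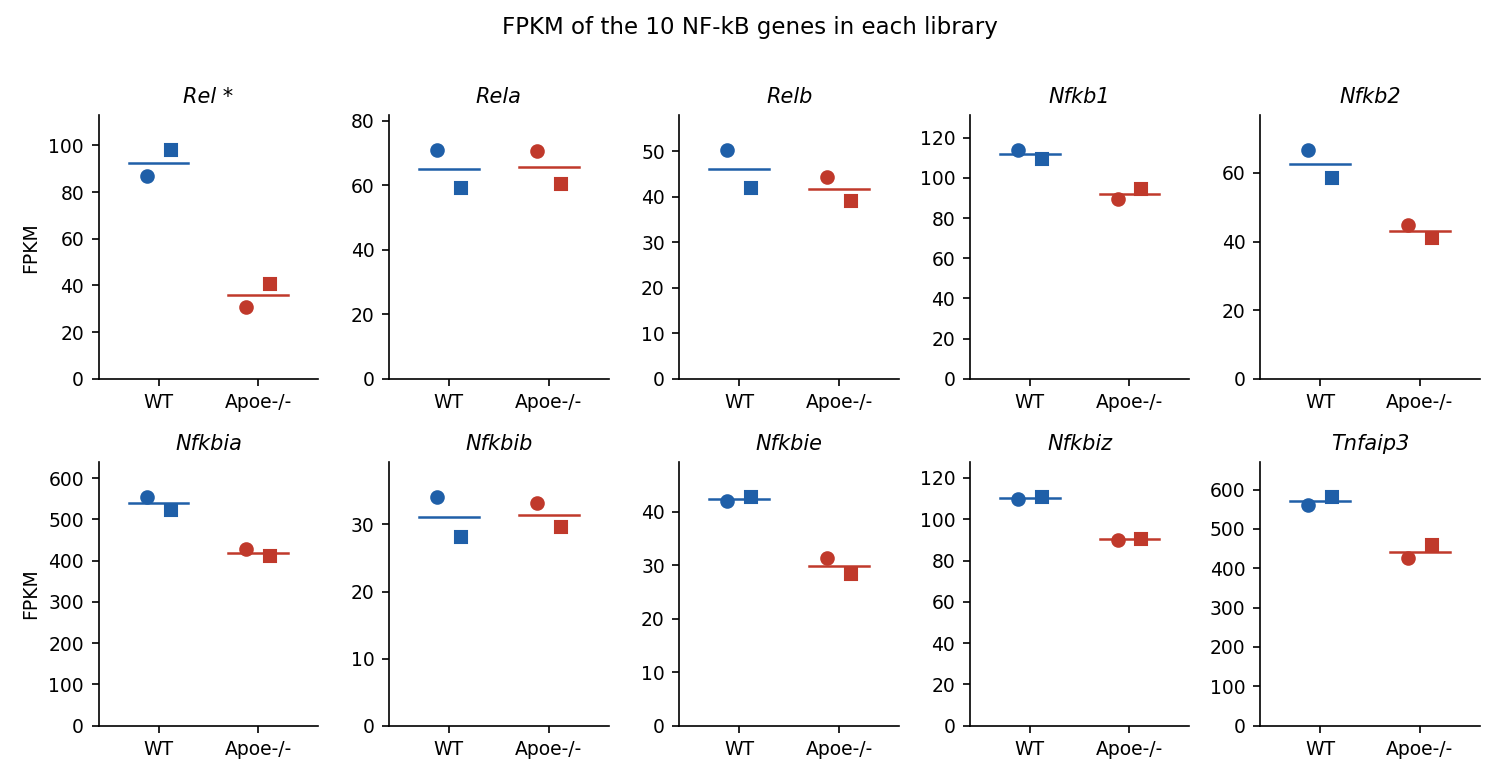
FPKM of each NF-kB gene (vertical axis from 0, its own scale in each panel) in the WT (blue) and Apoe-/- (red) libraries; circles are libraries numbered 1, squares those numbered 2, lines group means, and the asterisk marks an adjusted p under 0.05. Rel drops from 86.8 and 98.1 to 30.6 and 40.8 FPKM, whereas the points of Rela, Relb and Nfkbib overlap between genotypes.

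Because FPKM is scaled for length, the make-up of the subunit pool can be compared within a library. The 5 subunits summed to 389 and 367 FPKM in WT and 280.1 and 276 FPKM in Apoe-/- cells. Rel made up 22.3% and 26.7% of that sum in WT and 10.9% and 14.8% in Apoe-/- libraries, and the share of Rela went from 18.3% and 16.1% to 25.2% and 21.9%. Shares of one sum move against each other: the Rela share was higher while the FPKM of Rela itself overlapped between genotypes. Without Rel the other subunits summed to 302 and 269 FPKM in WT and 249 and 235 FPKM in Apoe-/- libraries. The order of levels changed accordingly: Rel was the second most abundant subunit in WT, after Nfkb1, and the least abundant in Apoe-/- cells, where it overlapped Relb.

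**Figure D2:**
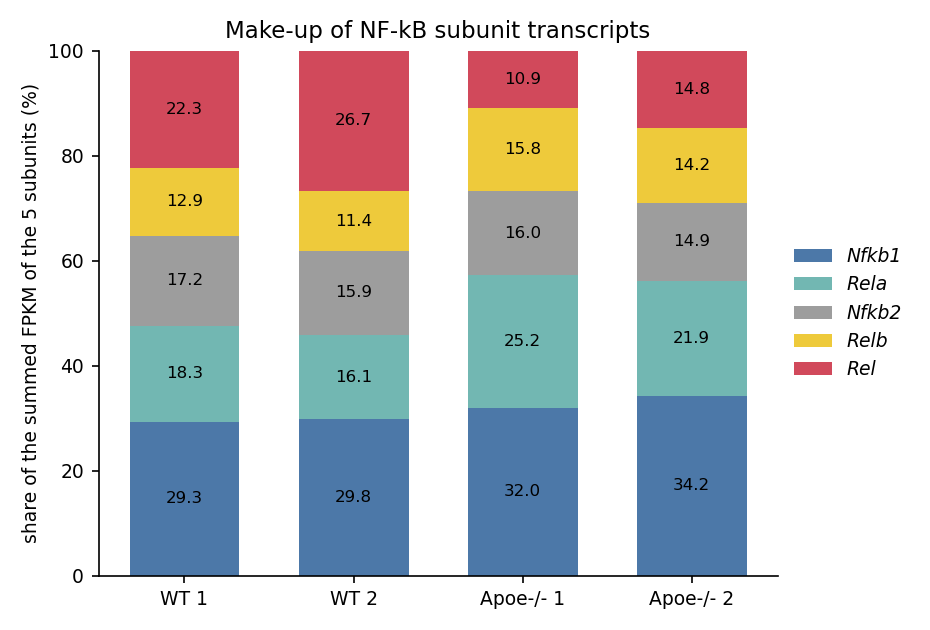
Share of each subunit gene in the summed FPKM of the 5 subunits (vertical axis, %), 1 bar per library; numbers in the bars are percentages. The Rel segment is 22.3% and 26.7% in the WT bars and 10.9% and 14.8% in the Apoe-/- bars, and that of Nfkb1 is the largest in each bar.

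Ratios within a library do not depend on how libraries were scaled. The FPKM of Rel was 1.22 and 1.66 times that of Rela in WT and 0.433 and 0.676 times in Apoe-/- cells, so the order of these subunits was reversed in both Apoe-/- libraries. Nfkb2 stood at 0.586 and 0.535 times Nfkb1 in WT and 0.501 and 0.436 times in Apoe-/- cells. Relb was at 0.709 times Rela in both WT libraries and at 0.627 and 0.647 times in Apoe-/- cells. The ratio of Nfkbia to Rela was 7.83 and 8.83 in WT and 6.04 and 6.81 in Apoe-/- cells. All of these ratios were lower in both Apoe-/- libraries. For each, the exact two-sided permutation test gave p = 0.333, the smallest that 2 libraries against 2 allow, so none can pass a threshold in this design.

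Among the inhibitors, Nfkbia, which encodes the IkB-alpha protein that retains p65 and c-Rel dimers and is resynthesised after each activation, was by far the most abundant. It was at 555 and 523 FPKM in WT and 427 and 412 FPKM in Apoe-/- cells. The groups did not overlap, and the log2 difference was -0.36 ± 0.08 SE (limma adjusted p = 0.10). Nfkbie, which encodes IkB-epsilon, another inhibitor made on NF-kB activation, was at 41.9 and 42.8 FPKM in WT and 31.4 and 28.3 FPKM in Apoe-/- cells (-0.49 ± 0.10 SE, adjusted p = 0.0935), also without overlap. Nfkbib, which encodes IkB-beta, was at 34.2 and 28.1 FPKM in WT and 33.3 and 29.6 FPKM in Apoe-/- cells. Its groups overlapped fully (0.02 ± 0.14 SE, interval -0.32 to 0.36, adjusted p = 0.96), and its sign turned to -0.029 with one FPKM total. Nfkbia made up 88.0% and 88.1% of the summed FPKM of these inhibitors in WT and 86.9% and 87.7% in Apoe-/- libraries, so the make-up of the pool moved little while its sum went from 632 and 594 to 492 and 469.5 FPKM.

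Nfkbiz encodes an atypical, nuclear member of the inhibitor family that acts as a co-regulator of NF-kB target genes. It was at 109.9 and 111 FPKM in WT and 90.1 and 90.4 FPKM in Apoe-/- cells, with replicates close together and no overlap, and the log2 difference was -0.29 ± 0.09 SE (limma adjusted p = 0.159). Tnfaip3 removes activating ubiquitin chains upstream of IKK, and it was the most abundant NF-kB gene in both genotypes. It was at 562 and 582 FPKM in WT and 426 and 459 FPKM in Apoe-/- cells. Both Apoe-/- libraries lay below both WT libraries, with a log2 difference of -0.37 ± 0.08 SE (limma adjusted p = 0.0988). By mean WT level, Tnfaip3 and Nfkbia lay at the 98.9th percentile of tested genes. Their means were close in both genotypes, at 572 and 539 FPKM in WT and 442 and 419 FPKM in Apoe-/- cells. The ranges of Tnfaip3 and Nfkbia overlapped in Apoe-/- cells and not in WT.

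None of the 4 inhibitor genes passed in limma, with 3 lower and 0 higher at an unadjusted p under 0.05, where 8.27% and 11.6% of all tested genes were. Of the subunits, 1 of 5 was called lower, against 0.885% of all tested genes, and 3 were lower at the unadjusted threshold, against 8.27%. Leaving out single libraries kept the Rel call each time, and its log2 difference then lay between -1.56 and -1.16.

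**Figure D3:**
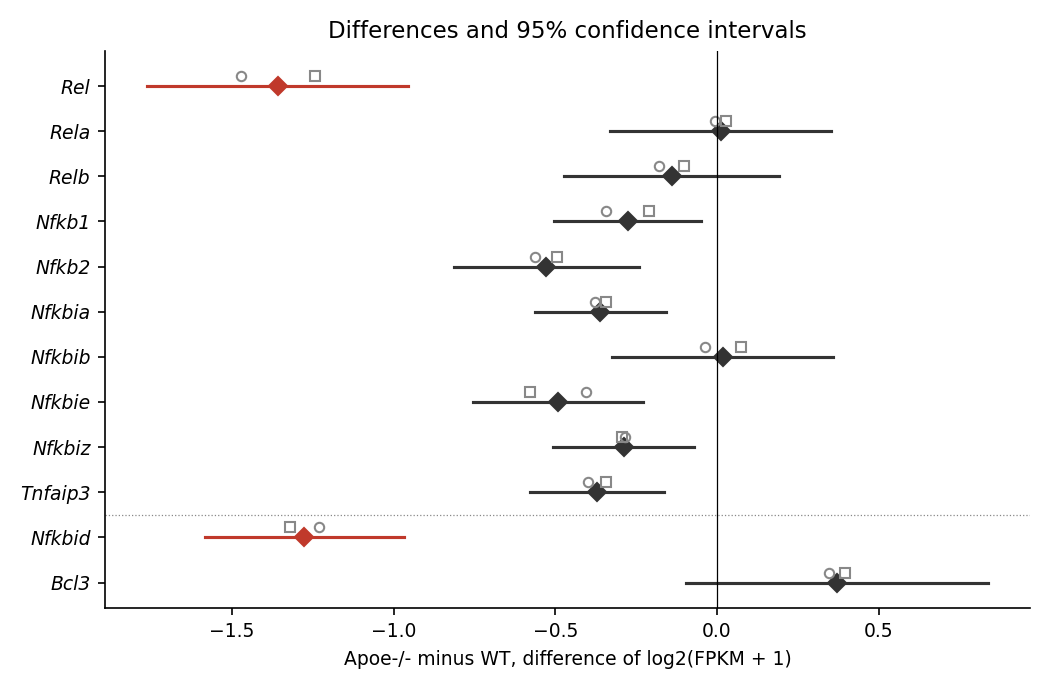
Difference of log2(FPKM + 1), Apoe-/- minus WT (horizontal axis), with 95% confidence intervals from limma for the NF-kB genes and, under the dotted line, for 2 further genes of the inhibitor family; red marks an adjusted p under 0.05, and open circles and squares are the differences between libraries numbered 1 and between those numbered 2. Rel (-1.36) and Nfkbid (-1.28) lie apart from the other genes, and the intervals of Rela, Relb, Nfkbib and Bcl3 include 0.

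Nfkbid and Bcl3 encode the other nuclear members of the inhibitor family. Nfkbid, which is induced by T cell receptor signals, was at 136 and 123 FPKM in WT and 57.5 and 48.5 FPKM in Apoe-/- cells. It fell 2.45-fold (log2 difference -1.28 ± 0.12 SE, limma adjusted p = 0.0185), with both Apoe-/- libraries far below both WT libraries. Bcl3, a partner of the Nfkb1 and Nfkb2 products in the nucleus, was at 30.7 and 23.1 FPKM in WT and 39.3 and 30.6 FPKM in Apoe-/- cells. It pointed the other way, with groups that just overlapped (0.37 ± 0.19 SE, interval -0.10 to 0.84, adjusted p = 0.343). Of the 12 tested genes in the list of further inhibitors and negative regulators, Nfkbid was the only one called, where 0.885% of all tested genes were called lower. At an unadjusted p under 0.05 in limma, 2 were lower and 1 higher, against 8.27% and 11.6% of all tested genes. Traf3, which restrains the noncanonical pathway, had means of 24.1 FPKM in WT and 18.6 in Apoe-/- cells (adjusted p = 0.153). Over these genes the median difference was -0.09. Without Apoe-/- replicate 1 it turned to 0.024, where the median over all tested genes was 0.044. Cyld, another deubiquitinase, was at 34.4 and 41.2 FPKM in WT and 30.9 and 39.5 FPKM in Apoe-/- cells, with overlapping groups.

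The kinases and adaptors that activate the pathway showed no call in limma. Of 19 tested genes of the IKK and upstream list 0 were called, against 1.83% of all tested genes. At an unadjusted p under 0.05, 0 were lower and 2 higher, the latter near the 11.6% of all tested genes, where 8.27% were lower; the median difference was 0.10. Ikbkb, the kinase of the canonical branch, was at 46.6 and 48.1 FPKM in WT and 48.8 and 53.0 FPKM in Apoe-/- cells. The largest differences, given as mean FPKM in WT and in Apoe-/- cells, were those of Tab1 (10.6 and 14.3 FPKM, adjusted p = 0.161), Ikbkg, the IKK scaffold (10.8 and 14.5 FPKM, adjusted p = 0.193), and Birc2 (62.2 and 49.5 FPKM, adjusted p = 0.472).

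The route from the T cell receptor had 0 of 10 tested genes called, against 1.83% of all tested genes, and a median of -0.08. At the unadjusted threshold 3 were lower and 0 higher, against 8.27% and 11.6%. Bcl10 and Malt1 encode proteins of the complex that carries receptor signals to IKK. Malt1 was at 183 and 216 FPKM in WT and 122 and 149 FPKM in Apoe-/- cells (-0.56 ± 0.14 SE, limma adjusted p = 0.119). Bcl10 was at 72.1 and 78.4 and at 51.4 and 51.1 FPKM (-0.54 ± 0.10 SE, adjusted p = 0.0713). Both were apart between genotypes without passing. Cd28, the costimulatory receptor, was at 133 and 169 FPKM in WT and 83.8 and 114 FPKM in Apoe-/- cells (adjusted p = 0.165). Without Apoe-/- replicate 2, Cd28 and Malt1 passed (adjusted p = 0.0114 and 0.0211). Of the 14 tested TNF family receptors and ligands 0 were called, with 1 lower and 2 higher at the unadjusted threshold, shares near the 8.27% and 11.6% of all tested genes. By mean FPKM in WT and Apoe-/- cells these were Tnfsf11 (74.4 and 55.8 FPKM, adjusted p = 0.115), Tnfrsf25 (22.7 and 33.7 FPKM, adjusted p = 0.0858) and Tnfrsf1a (13.4 and 18.7 FPKM, adjusted p = 0.169).

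Among genes known as NF-kB targets in immune cells, other than the NF-kB genes themselves, 5 of 25 tested fell and 1 rose. Of all tested genes 0.885% and 0.948% did, and the median difference of the list was -0.28. Like the other lists here, it was chosen with earlier results of these data known. Its shares therefore describe the list and cannot test NF-kB targets as a set. Cxcl10, a chemokine that is also induced by interferons, fell from 129 ± 0.927 to 45.6 ± 0.344 FPKM (log2 difference -1.48 ± 0.09 SE, limma adjusted p = 0.00802). Cd83, a surface protein of activated lymphocytes and dendritic cells, fell from 135 ± 1.12 to 51.8 ± 4.70 FPKM (-1.37 ± 0.10 SE, adjusted p = 0.0109). Gadd45b, a stress-response gene, the chemokine receptor gene Ccr7 and the transcription factor gene Nfil3 fell by 0.93, 0.85 and 0.69 on the log2 scale. Ccl3, a chemokine of activated T cells and myeloid cells, rose from 7.17 ± 1.17 to 20.3 ± 1.01 FPKM (1.39 ± 0.14 SE, adjusted p = 0.0188). At an unadjusted p under 0.05 in limma, 12 of the 25 were lower and 3 higher, against 8.27% and 11.6% of all tested genes. Without overlap between genotypes, 13 were lower and 6 higher, called genes included, against 22.9% and 27.5% of all tested genes. The rest overlapped between genotypes, among them Icam1 (34.2 and 31.5 FPKM in WT, 35.9 and 32.8 in Apoe-/-), Traf1 and Cflar. With no FPKM filter the calls of Gadd45b, Ccr7, Nfil3 and Ccl3 ended (adjusted p = 0.0605 to 0.0865); those of Ccr7 and Nfil3 also ended without either WT library, up to adjusted p = 0.126 and 0.168, and that of Gadd45b without WT replicate 1 (0.0656). Both Ccr7 and Nfil3 missed the threshold with no mean-variance trend as well (0.0512 each), and Ccr7 with a mean FPKM of 5 or more (0.054) and with one upper quartile (0.0524). Cd83 and Ccr7 are expressed by B cells too, whose marker sums were lower in the same libraries. Ccl3 is expressed by activated T cells and myeloid cells, as given above. The marker sums of macrophages and monocytes, neutrophils, dendritic cells, and CD8 T and NK cells were higher in the Apoe-/- libraries. The part of all these cells in these results was not tested.

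Immediate early genes respond within minutes to receptor signals or to handling of cells, and their list was likewise chosen with earlier results known. Of its 16 tested genes 3 fell and 0 rose, where 0.885% and 0.948% of all tested genes did. All 3 were nuclear receptors of the Nr4a family. Nr4a3 was at 105 and 91.4 FPKM in WT and 11.9 and 11.8 FPKM in Apoe-/- cells, and Nr4a2 and Nr4a1 fell by 1.28 and 1.01 on the log2 scale, the latter with an adjusted p of 0.0496 that missed the threshold in 7 of 13 other settings, among them without WT replicate 1 (0.0896) and with no FPKM filter (0.102). Fos, by contrast, was at 735 and 680 FPKM in WT and 943 and 886 FPKM in Apoe-/- cells (adjusted p = 0.101). Over the 16 genes the median difference was 0.06; it turned to -0.10 without WT replicate 2 and to -0.12 without Apoe-/- replicate 1, and was 0.15 and 0.18 without the other library of each genotype. Without overlap between genotypes, 6 genes were lower and 6 higher, against 22.9% and 27.5% of all tested genes.

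**Figure D4:**
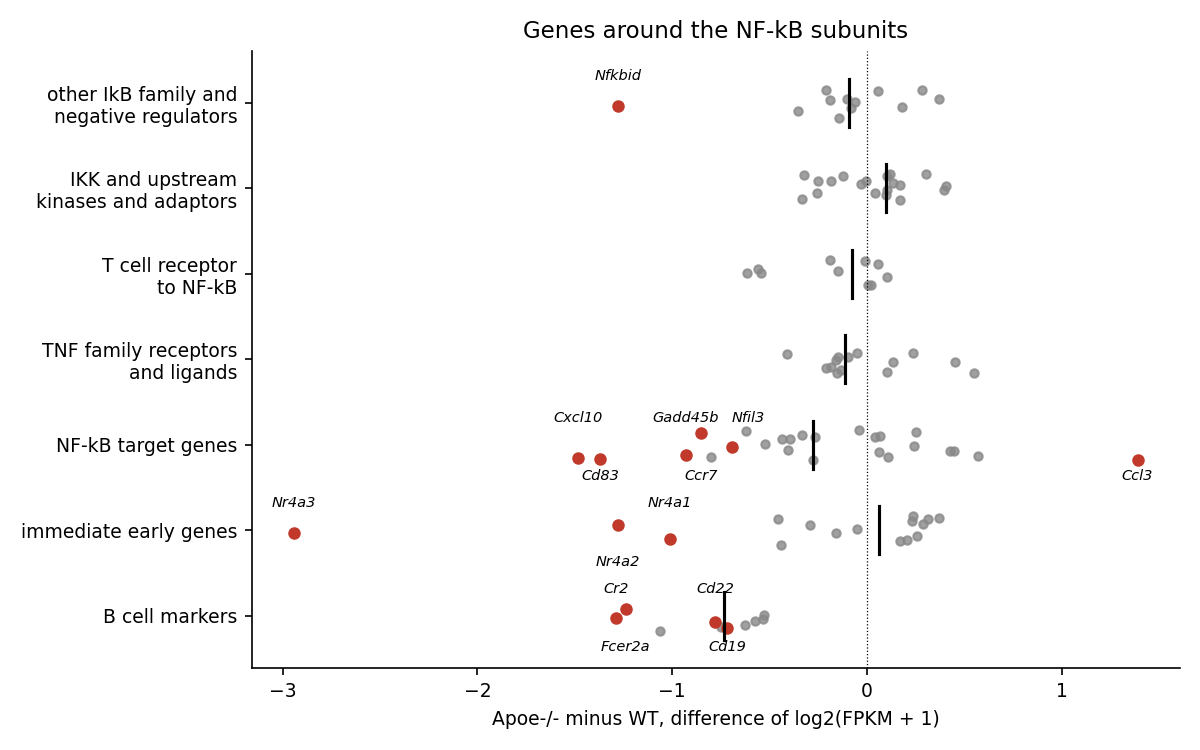
Difference of log2(FPKM + 1), Apoe-/- minus WT (horizontal axis), of every tested gene in the lists around the NF-kB genes and in the B cell marker list; red points with names passed the test, grey points did not, and black bars are list medians. The target list holds 5 called genes on the left and Ccl3 on the right, whereas the kinase, T cell receptor and TNF family lists hold no red point.

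Relb, Bcl3, Nfkbib and Nfkbid lie on the same chromosome as Apoe. Relb (chromosome 7, 19606217 to 19629438) lies 0.0668 Mb from Apoe, and Bcl3 lies 0.107 Mb from Apoe on its other side. Nfkbib is 9.06 Mb away and Nfkbid, which was called lower, 10.7 Mb. Of 26 tested genes within 0.5 Mb of Apoe, Apoe included, 4 were called higher (Apoc4, Apoc1, Ceacam16 and Igsf23) and 2 lower (Apoe and Bcam). Of all tested genes, 0.948% were called higher and 0.885% lower. The call of Apoc4 ended without WT replicate 1 (adjusted p = 0.0744), and those of Apoc4, Apoc1 and Ceacam16 with no FPKM filter (0.0584 to 0.103). Ceacam16 (0.972 and 0.647 FPKM in WT, 3.32 and 3.32 in Apoe-/-) passed the filter on mean FPKM only through its Apoe-/- values. Bcam (2.21 and 2.12 FPKM in WT, 0.510 and 0.442 in Apoe-/-) passed it only through its WT values. Relb and Bcl3 sit among these called neighbours without a call of their own. All Apoe-/- libraries carry the altered locus, so loss of Apoe and differences in the linked stretch of chromosome cannot be told apart for genes there. How far that stretch reaches, and whether it holds Nfkbib or Nfkbid, was not tested. Rel lies on chromosome 11.

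**Figure D5:**
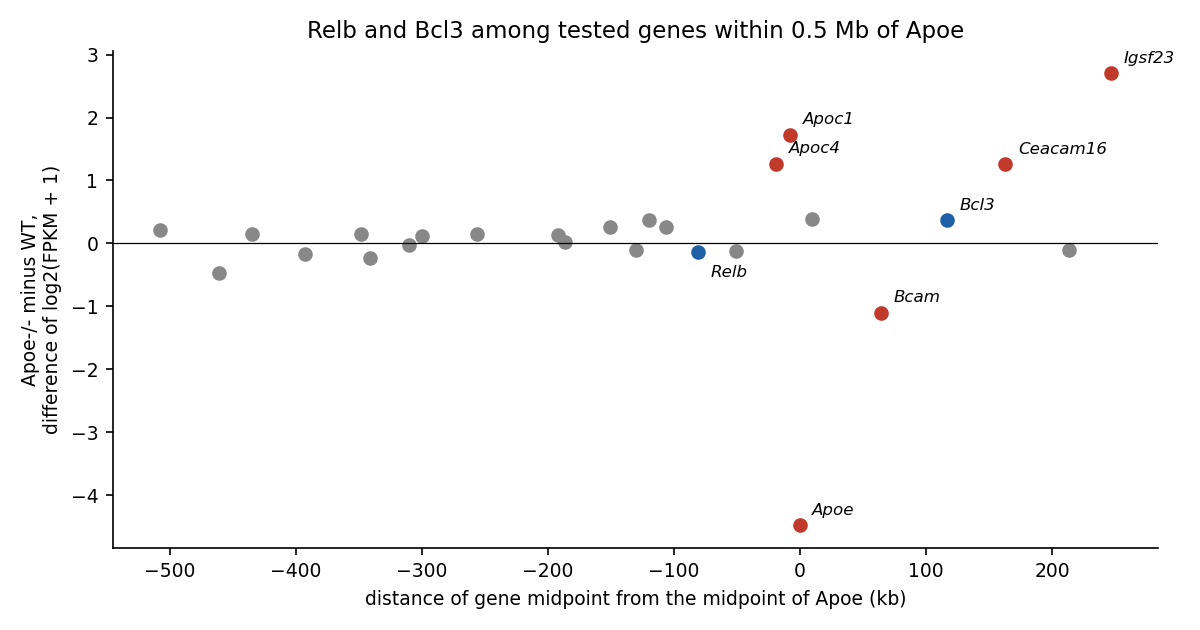
Difference of log2(FPKM + 1), Apoe-/- minus WT (vertical axis), of the 26 tested genes within 0.5 Mb of Apoe against the distance of each gene's midpoint from that of Apoe (kb); red points passed the test, blue points are Relb and Bcl3, and grey points are the rest. Relb (-0.14) and Bcl3 (0.37) lie near 0 between Igsf23 at 2.70 and Apoe at -4.48.

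The genes whose pattern over the 4 libraries was most like that of Rel, by Euclidean distance between centred log2(FPKM + 1) profiles, were Arl5b, a small GTPase (distance 0.0876), Utp14b, a retrogene copy of Utp14a (0.101), and Slc16a1, a lactate transporter (0.14). Arl5b went from 14.6 and 17.7 FPKM in WT to 4.92 and 6.37 FPKM in Apoe-/- cells, with the library numbered 2 the higher in each genotype, as for Rel. Reads of Utp14b and Utp14a could have been split by the counting. For Nfkb2 the closest were Bag3 (0.0432), Hspa1a (0.0463) and Grasp (0.049), of which Hspa1a has a near-identical copy, Hspa1b. The calls of Arl5b, Utp14b and Slc16a1 ended with no FPKM filter (adjusted p = 0.0715 to 0.0945), and that of Slc16a1 without WT replicate 2 (0.0571). With only 4 libraries many profiles are alike, so these are descriptions.

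Some exons of these genes are shared with genes on the opposite strand, and no strand setting is given in the sources used here. By the GENCODE annotation of GRCm38, 299 of the 4584 exonic bases of Nfkb2 overlap Psd, with means of 3.24 FPKM in WT and 3.10 in Apoe-/- cells, and 531 overlap a non-coding RNA not analysed here. Of the 2169 exonic bases of Nfkbib, 42 overlap Sirt2 (means 55.9 and 55.4 FPKM) and 314 overlap Ccer2, not analysed here. Reads of these stretches cannot be assigned to 1 gene without strand. No other annotated gene overlaps the exons of Rel, Rela, Relb, Nfkb1, Nfkbia, Nfkbie, Nfkbiz or Tnfaip3.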

How the data were processed

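The deposited table gives FPKM per gene and library, as computed by the authors. Build mm10 and the tools Cuffdiff 2.2.0, TopHat2 2.0.13 and CASAVA 1.8.2 come from the submitters' processing notes; for annotation, strand setting and filters these sources give nothing. Read depth is unknown, so values carry no counting interval; FPKM totals were 522371 to 551289 per library. In 2 rows (Bcl6 and Cxcr5) a space in place of a tab was read as a separator. A mean FPKM of at least 1 left 11187 genes, which were tested, all 10 NF-kB genes among them, as log2(FPKM + 1) with limma 3.58.1 in R 4.3.3 (mean-variance trend, two-sided, Benjamini-Hochberg threshold 0.05), a procedure tested on simulated data. The log2(FPKM + 1) scale understates changes of low genes. Folds are ratios of mean FPKM. Positions are RefSeq's by symbol (GRCm38, also called mm10). Members, lists and tests were chosen with earlier results of these data known. Beyond the members, Apoe, Bcl3 and Nfkbid, genes were named by call or largest difference within each list, by call near Apoe, or by closest profile; Cyld, Ikbkb, Icam1, Traf1, Cflar and Fos were added after their values were seen. Alternatives varied pseudocount, filter, scaling, variance model, replicate block and libraries.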

Additional observations from a re-analysis of the deposited data

How the results depend on the processing

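Of 13 alternative settings, Rel kept its direction in 13 and its call in 12, losing it with no FPKM filter (log2 difference -1.36, adjusted p = 0.0726). With no filter 0 NF-kB genes, 35 higher and 41 lower genes in the whole table, and 5 lower and 0 higher genes of the 6 pathway lists were called, against 1, 106, 99, 9 and 1 of 96 tested; more genes then enter the adjustment. With a mean FPKM of 5 or more, 51 genes were higher. Nfkbib and Rela turned sign with one FPKM total (-0.029 and -0.036) and with single libraries left out, when they ranged from -0.12 to 0.15 and from -0.12 to 0.14; no call was at stake. With 1 library left out, the lone library being assumed to vary like the other group, genes called ranged from 54 to 317 higher and from 61 to 301 lower, and pathway list genes called lower from 5 to 12. Sequencing depth is unknown, so how far it limits low genes cannot be given.

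The labels do not tie equal replicate numbers to an animal or day. The deviations of libraries numbered 1 from their group means correlated at 0.214 between genotypes over 11187 genes. With the replicate number as a block, 1908 genes were higher and 1776 lower (32.9% of those tested), 40 pathway list genes were lower and 22 higher, and 7 NF-kB genes were lower: Rel, with Nfkb1 (-0.28, adjusted p = 0.0133), Nfkb2 (-0.53, 0.0028), Nfkbia (-0.36, 0.00254), Nfkbie (-0.49, 0.00645), Nfkbiz (-0.29, 0.00659) and Tnfaip3 (-0.37, 0.00261).

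List medians moved by more than the replicate spread in some settings. With one FPKM total they were 0.053 for the IKK, -0.13 for the T cell receptor and -0.16 for the TNF family list; the target list was at -0.33 with a pseudocount of 0.1 and at -0.33 with a mean FPKM of 5 or more. With 1 library left out the ranges were -0.17 to 0.024 for further inhibitors, 0.034 to 0.079 for IKK, -0.13 to -0.060 for T cell receptor, -0.10 to -0.026 for TNF family, -0.36 to -0.19 for target genes and -0.12 to 0.18 for immediate early genes. The median over all tested genes moved too, from 0.00029 in the main setting to -0.043 with one FPKM total, a rescaling that moves all genes of a library alike. It was -0.016 and 0.026 without WT replicates 1 and 2, and 0.044 and -0.028 without Apoe-/- replicates 1 and 2. The cause of the other shifts was not tested.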
